A study of Mus musculus with 4 samples.

Results

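Outside the single cassette exon and the retained intron, the deposited splicing table of Ptbp2-deficient mouse testis lists 285 events of 4 kinds. They are 113 tandem cassette exons (108 genes), 32 mutually exclusive exons (31 genes), 85 alternative 3′ splice sites (85 genes) and 55 alternative 5′ splice sites (55 genes). Members were all rows with the type codes taca, mutx, alt3 and alt5, which were read as these 4 kinds. They make up 23.3% of the 1223 events and lie in 257 of the 915 genes listed. A blank gene name was filled with the name above it, which was needed for 112 of the 285 rows. Of those, 110 had an annotated gene, and all 110 lay on its chromosome and strand. The remaining rows of the table are 741 single cassette exons and 197 retained introns.

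RNA was sequenced from whole testes of 4 male C57BL/6 mice at postnatal day 25, an age at which the first wave of germ cells has reached the round spermatid stage. Of these, 2 mice were wild type (WT) and 2 carried a conditional knockout labelled as deficient in Ptbp2 (cKO), with 1 library per mouse. The promoter or cell type that drove the deletion is not given in the sources used here. Splicing was given as 1 ΔPSI per event, the difference between the genotypes in percent spliced in, in percentage points.

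Ptbp2 encodes a polypyrimidine tract binding protein, a paralogue of PTB that is made in neurons and germ cells and that binds pyrimidine-rich RNA containing motifs such as UCUU. Bound near an exon or a splice site, PTB proteins often repress its use. In a tandem event, neighbouring exons are taken or skipped together. Mutually exclusive exons replace each other. Alternative 3′ and 5′ splice sites lengthen or shorten an exon at its start or at its end.

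The deposited table does not state which genotype was subtracted, nor which form counts as spliced in. Only the sign and size of ΔPSI are therefore given, without saying which form was used more. No value per library, coverage or p accompanies an event, so ΔPSI has no replicate error and none of the splicing differences could be tested over mice. Coordinates of events were taken as mm9, a build inferred and not stated for them, and are given counted from 1. Exon structures and sequences came from GENCODE M21 on GRCm38 by gene and length, without converting coordinates.

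For alternative 3′ splice sites, 6 events of at least 20 points with 1 annotated pair of forms and a wholly coding stretch are shown. They were chosen for stretches short enough to read, from 3 to 53 nt, to make visible what the longer form adds. Each is the spliced RNA as DNA letters, 5′ to 3′, on GRCm38. Lower case marks 20 nt of the upstream exon and, after the capitals, 20 nt of the rest of the alternative exon. Capitals mark the stretch that is present only when the upstream acceptor is used. Its last letters are the AG of the inner acceptor. The ΔPSI was -61 for Fam116b, -50 for Strn4, -25 for Kdm4b, -23 for Sept4, -21 for Chtf18 and 23 for Synj1.
Fam116b (chr15:89186999-89187050, minus strand): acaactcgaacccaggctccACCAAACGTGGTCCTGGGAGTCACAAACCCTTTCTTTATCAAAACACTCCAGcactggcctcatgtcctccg
Strn4 (chr7:16831465-16831485, plus strand): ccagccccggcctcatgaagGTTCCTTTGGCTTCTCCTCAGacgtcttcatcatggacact
Kdm4b (chr17:56394769-56394789, plus strand): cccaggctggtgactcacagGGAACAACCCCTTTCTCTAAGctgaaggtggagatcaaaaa
Sept4 (chr11:87589956-87590008, plus strand): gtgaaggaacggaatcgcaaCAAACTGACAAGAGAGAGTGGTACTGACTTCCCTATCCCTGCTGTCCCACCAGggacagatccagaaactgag
Chtf18 (chr17:25727121-25727123, minus strand): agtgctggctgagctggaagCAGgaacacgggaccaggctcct
Synj1 (chr16:90974067-90974075, minus strand): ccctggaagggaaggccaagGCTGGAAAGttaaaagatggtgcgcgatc

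At alternative 5′ splice sites the order is reversed, and 6 are shown to set coding stretches with large positive and negative changes beside the shortest one. Lower case marks 20 nt of the exon before the inner donor and 20 nt of the next exon, and capitals mark the stretch between the donors. Its first letters are the GT of the inner donor. The ΔPSI was -34 for Usp5, -29 for Tle3, -6 for Ggnbp2, 21 for Eps15, 24 for Gsg1 and 36 for Prkcd.
Usp5 (chr6:124818475-124818543, minus strand): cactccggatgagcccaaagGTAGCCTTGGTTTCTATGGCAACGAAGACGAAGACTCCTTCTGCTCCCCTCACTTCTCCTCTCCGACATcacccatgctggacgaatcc
Tle3 (chr9:61394683-61394712, plus strand): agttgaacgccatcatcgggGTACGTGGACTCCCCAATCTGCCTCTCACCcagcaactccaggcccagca
Ggnbp2 (chr11:84841415-84841420, minus strand): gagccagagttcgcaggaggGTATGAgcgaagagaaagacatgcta
Eps15 (chr4:109321218-109321325, plus strand): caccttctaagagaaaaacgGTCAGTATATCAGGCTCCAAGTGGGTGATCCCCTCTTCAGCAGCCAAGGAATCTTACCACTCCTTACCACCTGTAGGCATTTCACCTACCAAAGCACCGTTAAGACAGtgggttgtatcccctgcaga
Gsg1 (chr6:135242051-135242173, minus strand): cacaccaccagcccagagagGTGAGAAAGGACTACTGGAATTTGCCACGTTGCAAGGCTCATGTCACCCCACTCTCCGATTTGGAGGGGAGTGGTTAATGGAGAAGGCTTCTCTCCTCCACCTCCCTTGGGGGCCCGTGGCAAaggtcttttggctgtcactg
Prkcd (chr14:30602659-30602736, minus strand): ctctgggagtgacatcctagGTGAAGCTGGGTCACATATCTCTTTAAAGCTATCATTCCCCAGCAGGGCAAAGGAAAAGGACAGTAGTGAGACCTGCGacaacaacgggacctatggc

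For tandem exons, 3 pairs are shown joined, with the first exon in lower case and the second in capitals. They are the event with the highest ΔPSI (Immt, 68), a pair whose exons keep the reading frame only together (Ccdc108, 39), and a pair whose exons have opposite signs as single cassettes (Lrrfip2, -57). The coordinates span the intron between the exons, which is not printed.
Immt (chr6:71852730-71853268, plus strand): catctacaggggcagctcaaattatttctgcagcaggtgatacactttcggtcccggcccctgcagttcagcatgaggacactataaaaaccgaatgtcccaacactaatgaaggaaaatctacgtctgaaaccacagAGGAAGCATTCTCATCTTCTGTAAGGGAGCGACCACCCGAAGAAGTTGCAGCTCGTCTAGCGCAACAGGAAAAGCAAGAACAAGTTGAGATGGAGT
Lrrfip2 (chr9:111207797-111213914, plus strand): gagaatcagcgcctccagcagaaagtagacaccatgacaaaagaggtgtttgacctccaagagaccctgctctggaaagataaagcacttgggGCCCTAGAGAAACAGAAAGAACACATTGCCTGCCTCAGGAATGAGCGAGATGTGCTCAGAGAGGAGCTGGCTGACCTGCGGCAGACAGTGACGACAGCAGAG
Ccdc108 (chr1:74929255-74932028, minus strand): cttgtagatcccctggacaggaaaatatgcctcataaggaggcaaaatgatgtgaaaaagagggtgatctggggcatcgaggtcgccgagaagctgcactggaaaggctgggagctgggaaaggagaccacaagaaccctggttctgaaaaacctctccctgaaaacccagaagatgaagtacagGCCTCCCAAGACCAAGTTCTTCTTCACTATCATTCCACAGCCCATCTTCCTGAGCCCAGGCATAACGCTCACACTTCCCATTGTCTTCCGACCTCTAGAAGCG

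Mutually exclusive exons are shown for Pkm and Cacnb1. The deposited Pkm exon (ΔPSI 11) and its annotated partner have the same length of 167 nt, and capitals mark the positions at which they differ. They are identical at 103 of 167 positions (61.7%). The deposited Cacnb1 exon (ΔPSI -47) is 155 nt long and its partner 20 nt, so these were not aligned and are in lower case throughout.
Pkm exon (chr9:59675029-59675195, plus strand): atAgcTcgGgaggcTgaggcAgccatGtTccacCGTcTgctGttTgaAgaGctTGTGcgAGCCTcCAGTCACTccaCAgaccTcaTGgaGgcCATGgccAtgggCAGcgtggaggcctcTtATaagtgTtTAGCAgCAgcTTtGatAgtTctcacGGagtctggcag
Pkm exclusive partner (chr9:59675568-59675734, plus strand): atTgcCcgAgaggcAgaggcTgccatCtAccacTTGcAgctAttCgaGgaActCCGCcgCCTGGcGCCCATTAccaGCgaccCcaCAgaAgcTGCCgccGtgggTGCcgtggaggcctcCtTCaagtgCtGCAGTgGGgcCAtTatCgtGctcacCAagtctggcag
Cacnb1 exon (chr11:98011343-98011497, minus strand): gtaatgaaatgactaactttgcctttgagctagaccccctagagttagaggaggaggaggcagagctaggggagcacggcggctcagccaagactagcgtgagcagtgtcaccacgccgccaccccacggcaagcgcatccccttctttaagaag
Cacnb1 exclusive partner (chr11:98010627-98010646, minus strand): ccaaacagaagcagaaatcg

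The 4 kinds differed in the sign of ΔPSI. Tandem cassette exons had a median ΔPSI of 3.5 and a range from -83 to 68, and 66 of the 110 that were not at 0 were positive (60.0%). Mutually exclusive exons had a median of -7 and a range from -50 to 34, with 8 positive and 23 negative. At alternative 3′ splice sites the median was -5, the range ran from -61 to 60, and 22 were positive and 60 negative. For alternative 5′ splice sites it was also -5, the range ran from -43 to 53, and 13 were positive and 40 negative. Over all 1223 events the median was -4, with 469 positive, 726 negative and 28 at 0. Tandem exons were thus the only kind of the 4 with more positive than negative values, but their largest values lay on the other side. Of tandem events of at least 20 points, 12 were positive and 19 negative.

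An absolute ΔPSI of 20 points is the limit of a second deposited table, which holds 257 events, or 21.0% of the 1223. All 66 of its events of these 4 kinds were found in the larger table. They make up 23.2% of the 285, near the share over all events. The share was 27.4% for tandem exons (31 events), 21.9% for mutually exclusive exons (7), 18.8% for 3′ sites (16) and 21.8% for 5′ sites (12). In direction, 23 of the 66 were positive and 43 negative, where 94 (7.69%) and 163 (13.3%) of all 1223 events were so at this size. The 257 events of this size were thus split into 94 positive and 163 negative, near the split of the 66. The median absolute ΔPSI was 11.5 for tandem and for mutually exclusive exons and 9 for both kinds of splice site, against 11 over all events. Changes under 5 points were most frequent at 3′ sites (31.8%) and least frequent in mutually exclusive exons (15.6%). Just inside the limit lay the tandem events of 4933427D14Rik (-20), Sec16a (-20), 5730419I09Rik (20) and Ppil2 (20), the exclusive exon of Camk2g (-21), the 3′ site of Ccdc76 (-20) and the 5′ site of Eps15 (21). Just outside lay those of Sec31a (tandem), Tbp (exclusive), Prss40 (3′ site) and Tdrd5 (5′ site), each at -19.

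**Figure D1:**
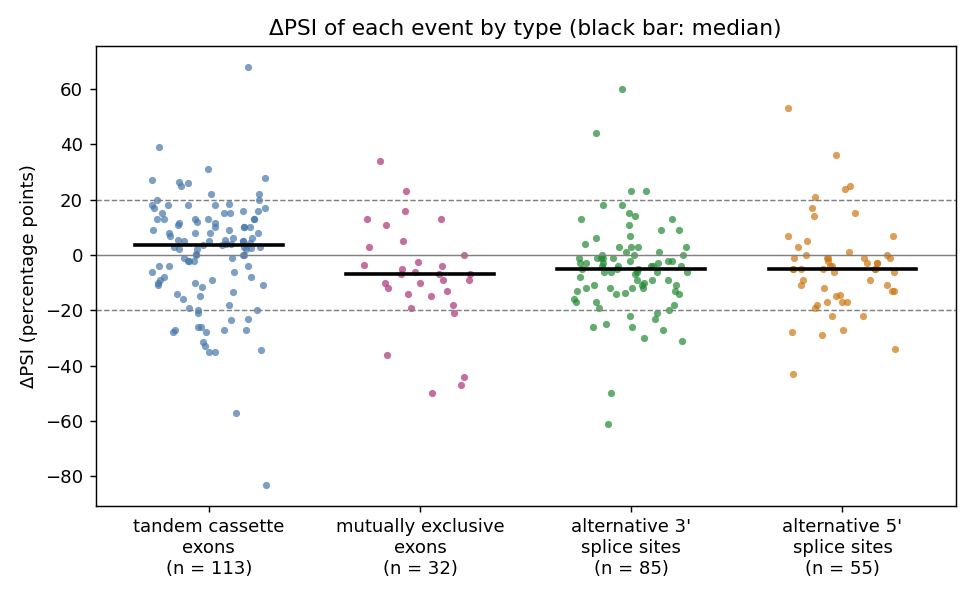
ΔPSI in percentage points for each of the 285 events, by kind of event. Each point is 1 event, the black bars are medians and the dashed lines mark 20 points. The tandem events have a median of 3.5, above 0, while the medians of the other kinds lie between -7 and -5.

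The deposited regions differed in what they span. Where it matched a run of exons, a tandem region spanned the start of the first exon to the end of the last, introns included. Over all 113 the median length was 1870 nt (190 to 53005). The 574-nt tandem region of Bspry (-4) has the coordinates of a single cassette that the table also lists, and matched no run. A mutually exclusive region is 1 exon, with a median of 111 nt (23 to 724). The regions of 3′ sites had a median of 192 nt (60 to 2468) and those of 5′ sites one of 202 nt (80 to 3376). Where a pair of annotated forms was matched, the region had the length of the longer form, not the distance between the sites. For regions without such a match this was not checked. Among tandem events the negative ones spanned a median of 1405 nt and the positive ones 1982.5 nt.

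The most negative tandem event was in Ablim3, an actin-binding LIM protein gene, at -83. It was the most negative of all 1223 events and holds exons of 99 and 48 nt. Next came Lrrfip2 (-57, chromosome 9, mm9 111110301 to 111116418), whose protein interacts with the actin regulator Flightless. Dctn1, which encodes the largest subunit of dynactin, the partner of the dynein motor, was at -35 (chromosome 6, mm9 83133930 to 83137778). Lrrc16a, a regulator of actin capping protein, was at -35 as well. Rapgef1, which activates the small GTPase Rap1, was at -34.5 with a run of 3 exons of 156, 258 and 96 nt. Mark2, a kinase of cell polarity, was at -33 with exons of 27 and 168 nt.

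Among positive tandem events Immt stood apart, with a ΔPSI of 68 on chromosome 6 (mm9 71802724 to 71803262). Immt encodes mitofilin, which holds crista junctions of mitochondria in place, and its exons are 138 and 96 nt long. Ccdc108, later named Cfap65 for a role in the sperm flagellum, followed at 39 with exons of 185 and 103 nt. Ttll10, a tubulin-modifying enzyme that adds glycine chains, was at 31 with exons that are both 172 nt long. Ppip5k1, an inositol pyrophosphate kinase, was at 28, and the zinc finger gene Zfp644 at 27.

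Of the 113 tandem events, 94 matched 1 chain of annotated exons. Of these, 78 held 2 exons, 13 held 3 and 3 held 4. The exons of an event summed to a median of 224 nt (38 to 1160), and a median of 12.5% of the region was exonic. A transcript that skips all of them together was annotated for 82 of the 94. Of the others, 8 spans held several exon chains, 7 matched no run of exons, 2 matched several runs and 2 had no annotated gene. The match rests on the length of the span alone. Inside matched events the table lists 72 single cassettes, of which 65 have the length of an exon of the chain. The other 7, in Lrrc16a, Mak, Mllt10, Pcbp3, Phf7 and Setdb2, have another length, so the exons of these events are uncertain.

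Tandem events differed by sign in whether they keep the reading frame. The exons lay wholly in coding sequence in 55 events. In all 20 negative ones their summed length was a multiple of 3 (100%). Of the 35 positive ones 17 were (48.6%). In 17 of the 20 negative events each exon by itself was a multiple of 3, against 10 of the 35 positive ones. Coding exons listed as single cassettes showed a smaller gap, with 166 of 230 negative ones (72.2%) and 134 of 204 positive ones (65.7%) a multiple of 3. The gap among tandem events was widest at small changes. Under 10 points, 7 of 7 negative and 4 of 16 positive events kept the frame, and from 10 points on 13 of 13 and 13 of 19 did. Of at least 20 points there were 9 negative coding events, all in frame, and 6 positive ones, of which 5 were. Leaving out chains with a cassette of another length inside, an alternative chosen after seeing the data, 19 of 19 negative and 16 of 32 positive events kept the frame. These shares describe the listed events and carry no test, since an event has no replicates.

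Some pairs keep the frame only together. Neither exon of Ccdc108 (185 and 103 nt) is a multiple of 3, but their sum of 288 nt is. Tsg101, a subunit of the ESCRT machinery that sorts membrane proteins, showed the same with exons of 67 and 92 nt (ΔPSI 25). So did Strada, a pseudokinase partner of Lkb1, with exons of 58 and 29 nt (-21), and Cep63, a centrosomal protein gene, with 206 and 280 nt (-8). There were 10 such coding events, of which 7 were positive and 3 negative. Among the positive events out of frame were Ttll10 (sum 344 nt, 31), Kif27 (1160 nt, 12), Adam32 (383 nt, 4) and Stag3, a meiotic cohesin subunit gene (272 nt, 2). Of events that were not wholly coding, several negative ones had a sum that is not a multiple of 3. Examples are Pum2 (125 and 74 nt, -28), Scmh1 (225 and 143 nt, -27) and Rps24 (18 and 20 nt, -15). Over all matched tandem events, coding or not, the sum was a multiple of 3 in 27 of 34 negative and 22 of 57 positive ones. For Lrrc16a (-35) the matched exons of 25 and 150 nt disagree with a 147-nt cassette listed inside it (-41).

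**Figure D2:**
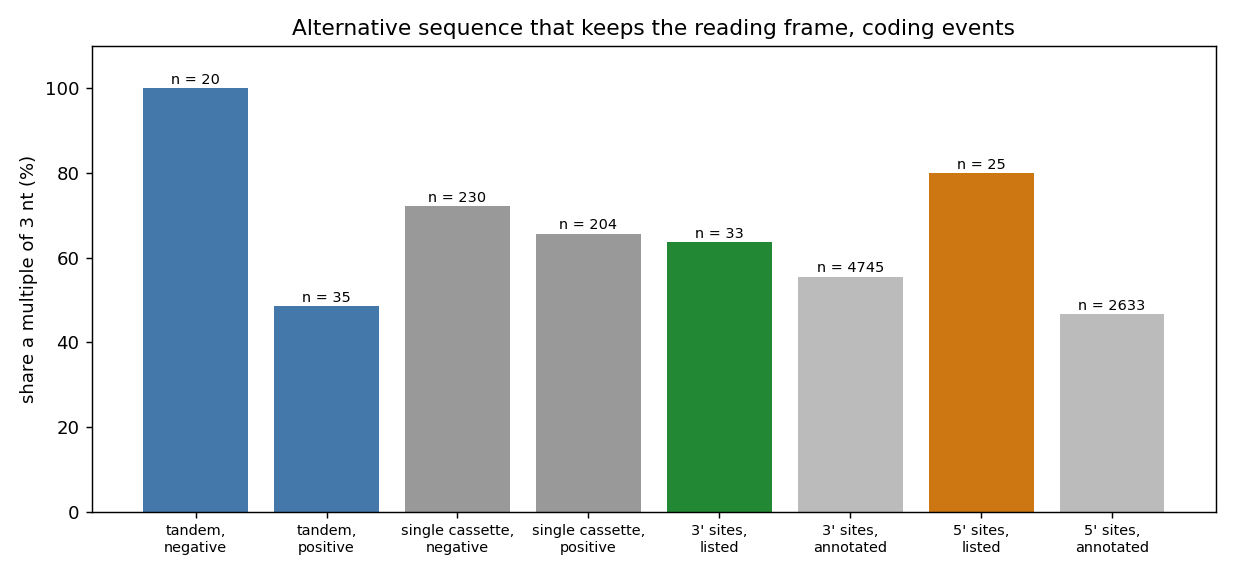
Share of alternative sequence that is a multiple of 3 nt, in percent, among coding events. Bars are shares with the number of events (or annotated pairs) above them and have no error bars, since events are not replicates. The 20 negative tandem events are all in frame, the 35 positive ones at 48.6%. Grey bars give single cassettes and annotated splice-site pairs from protein-coding and nonsense-mediated decay transcripts of protein-coding genes.

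The table also lists many of these tandem exons one at a time. In 68 of the 113 tandem regions at least 1 single cassette lay inside, giving 90 pairs of a tandem event and a cassette. The sign was the same in 82 pairs, opposite in 4, and 1 value was 0 in 4. The median difference was 5 points, and 72 pairs lay within 10 points. Pearson's r over the 90 pairs was 0.819. It is given as a description only, since both values come from the same libraries and share reads. Tandem events with a listed cassette inside had a median absolute ΔPSI of 14.6, and the 45 without had one of 9.

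Single pairs show how unevenly the exons of a tandem event can change. In Immt, against 68 for both exons, the 138-nt exon had a ΔPSI of 62 as a cassette and the 96-nt exon 34.5. In Lrrfip2, against -57 for both, the 102-nt exon had -54 and the 93-nt exon 14. In Ccdc108 the 185-nt exon had 57 and the 103-nt exon 18, around the tandem value of 39. Dctn1 lists a 21-nt exon at -53 inside its tandem region at -35. Pum2, an RNA-binding translational repressor, lists exons at -61 (74 nt) and -11 (125 nt) against -28. In Mllt10 a 193-nt cassette had -57 and a 51-nt cassette -14, against -14.2 for the tandem event. Neither has the length of an exon of the matched chain, so these may not be the exons of the tandem event. The other pairs with opposite signs were in 2900006K08Rik (-11 against 16), Plcd4 (-10 against 11) and Gtf2a2 (5 against -3.5).

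**Figure D3:**
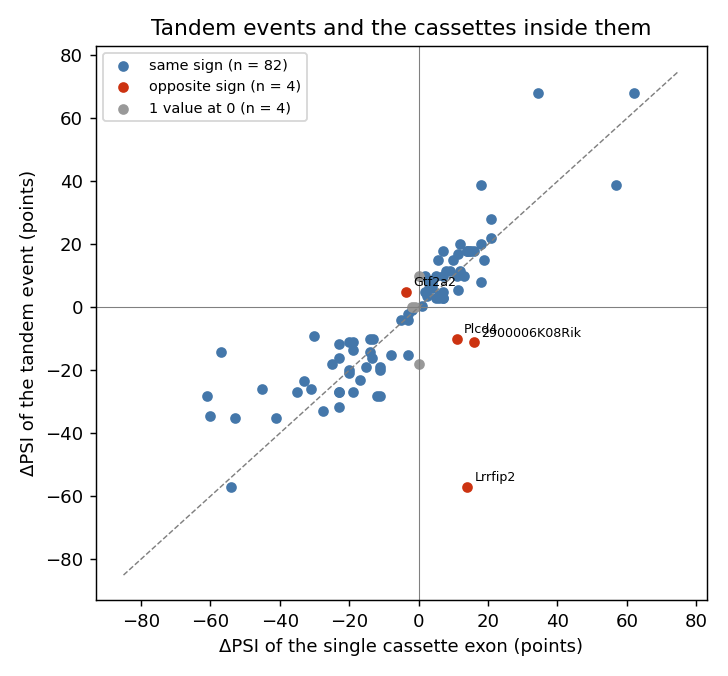
ΔPSI of 90 pairs of a tandem event (vertical axis) and a single cassette exon inside it (horizontal axis), both in percentage points. The dashed line marks equal values. The sign is the same in 82 pairs, and the 4 red points have opposite signs, with Lrrfip2 farthest from the line.

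Among mutually exclusive exons the 5 of at least 20 points with a negative sign were led by Rangap1, the activator of the Ran GTPase, at -50 for a 48-nt exon on chromosome 15 (mm9 81559647 to 81559694). Cacnb1, a β subunit of voltage-gated calcium channels, was at -47 for 155 nt, and Rims2, a scaffold of vesicle release, at -44 for 252 nt. Phf21a, a reader of unmethylated histone H3 in a corepressor complex, was at -36 for a microexon of 23 nt, and Camk2g, a calmodulin-dependent kinase, at -21 for 33 nt. The 2 positive ones were Pbrm1, a subunit of the PBAF chromatin remodeller (34, 140 nt), and Zfp62 (23, 96 nt). Next came Sun1 of the nuclear envelope (16), Tpm1, which encodes a tropomyosin (13, 126 nt), and Ogdh of the citric acid cycle (13, 91 nt).

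Of the 32, 1 (Cdc14b) had several annotated exclusive partners and 15 had a single one. In 12 of these the exon and its partner differed by a multiple of 3 or not at all, and this held for all 8 pairs in which both exons code. The lengths were equal in Pkm (167 nt), Far1 (172 nt) and Acp1 (114 nt). They differed by the most between coding partners in Phf21a (23 and 164 nt), Cacnb1 (155 and 20 nt) and Mff (159 and 33 nt), a mitochondrial fission factor. Rangap1 (48 and 209 nt) was among the 3 that differed otherwise. The 14 with an exon of that length and no annotated partner included Camk2g, Tpm1 and Sun1.

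Pkm, pyruvate kinase, is the textbook pair of PTB-regulated exclusive exons, of which the upstream one gives the M1 and the downstream one the M2 enzyme. The deposited 167-nt exon lies 11989 nt after a 117-nt Pkm cassette that the table also lists (ΔPSI 13). In the annotation the 167-nt exon at exactly that distance is the upstream of the pair, and its partner starts at 12528 nt. Its ΔPSI of 11 is below the limit of 20 points.

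Of the mutually exclusive exons, 14 overlapped a listed cassette, 11 of them with identical coordinates, and the sign was the same in 12. The sizes were not. The Rims2 exon had -44 as an exclusive exon and -14 as a cassette, the Fam53c exon -13 and -33, and the Camk2g exon -21 and -15.

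Alternative 3′ splice sites had 16 events of at least 20 points. Fam116b, a DENN-domain gene of membrane traffic, was the most negative at -61 (chromosome 15, mm9 89017386 to 89017480), and Strn4, a striatin scaffold of a phosphatase complex, followed at -50 (chromosome 7, mm9 17416814 to 17416929). Ttc29 of the sperm axoneme was at -31, Dab2ip, which inactivates Ras, at -30, and Snx27, a sorting nexin that works with retromer, at -27. Between -26 and -20 lay 9530077C05Rik, Gpc2 (a glypican), Kdm4b (a histone H3 demethylase), Sept4 (a septin of the sperm annulus), Kif1b (a kinesin), Chtf18 (a clamp loader subunit) and Ccdc76. Of the positive ones Zfp62 had 60, Idh3b, a subunit of mitochondrial isocitrate dehydrogenase, 44, and Immt and Synj1, a phosphoinositide phosphatase of endocytosis, 23 each. Below the limit, Qk, an RNA-binding protein gene, and Mtap4, which encodes a microtubule-associated protein, had 18 each.

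Several of these regions are also listed as another kind of event. The 432-nt Zfp62 region had 60 as a 3′ site, -17.3 as a cassette with the same coordinates, and 23 for the exclusive exon inside it. The Idh3b region (44) holds a cassette at 51.5 and overlaps a retained intron at -10. The Immt region (23) has the coordinates of the 138-nt cassette at 62.

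A pair of annotated forms was found for 53 of the 85 3′ events. In 10 more the exon was annotated without a shorter form, in 9 with several shorter forms, and in 13 no exon had that length. The forms differed by a median of 52 nt (3 to 2366), against 40 nt over 7468 annotated pairs of protein-coding genes. Those pairs came from protein-coding and nonsense-mediated decay transcripts alone, while events were matched over transcripts of every type. In 6 of the 53 events the longer form was in retained-intron transcripts alone, so the medians and shares compared here come from unlike sets. The stretch lay wholly in coding sequence in 33 events and was a multiple of 3 in 21 of these (63.6%), against 55.6% of 4745 annotated coding pairs. Chtf18 differs by 3 nt, a single codon, and Synj1 by 9 nt. Strn4 and Kdm4b differ by 21 nt each, Kif1b by 78 nt and Dab2ip by 66 nt, all of them multiples of 3. The stretches of Fam116b (52 nt), Sept4 (53 nt) and Gpc2 (83 nt) are not.

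The letters before the inner acceptor were close to those of the same annotated pairs. The stretch ended in AG in all 53 events, as in 97.3% of annotated pairs. Where it was at least 22 nt long (42 events), C and T made up a median of 72.5% of the 20 nt before that AG, against 70% over annotated pairs. The letters TCTT, searched on the RNA strand alone, were found in that window in 11 of 42 events (26.2%), Fam116b among them, against 24.6% of annotated pairs. Both forms were in transcripts annotated as protein-coding in 28 of the 53. The longer form was in transcripts annotated for nonsense-mediated decay alone in 12 and in retained-intron transcripts alone in 6.

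Alternative 5′ splice sites had 12 events of at least 20 points. The most negative were E130306D19Rik at -43 (chromosome 4, mm9 43510753 to 43510901), Usp5, which takes apart free ubiquitin chains, at -34 (chromosome 6, mm9 124768493 to 124768684), and Tle3, a Groucho corepressor, at -29. They were followed by 4921513D23Rik (-28), Smc5 of the SMC5/6 complex (-27), Pcmt1, a protein repair methyltransferase (-22), and Clip1, which encodes the microtubule plus-end protein CLIP-170 (-22). On the positive side were Bbx, an HMG-box gene (53), Prkcd, protein kinase C delta (36), Tbp, the TATA-binding protein (25), Gsg1, a germ cell gene (24), and the endocytic adaptor Eps15 (21). The Smc5 region holds a 45-nt cassette that also had a ΔPSI of -27.

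Of the 55, 45 matched a pair of annotated forms. Their donors lay a median of 77 nt apart (6 to 1991), against 54 nt over 4239 annotated pairs. The stretch was wholly coding in 25, and 20 of these (80.0%) were multiples of 3, against 46.8% of 2633 annotated coding pairs. The share was the same for negative (16 of 20) and positive (4 of 5) events. By size, every coding event under 10 points kept the frame, and from 10 to under 20 points 5 of 10 did. Of at least 20 points, 7 of 7 did. Those 7 were Usp5 (69 nt), Tle3 (30 nt), 4921513D23Rik (537 nt), Clip1 (228 nt), Eps15 (108 nt), Gsg1 (123 nt) and Prkcd (78 nt). Annotated pairs include forms that few RNAs carry, so they are a background of positions and not of use. Here too they came from protein-coding and nonsense-mediated decay transcripts alone, unlike the matched events, so the medians and shares are of unlike sets. The stretch began with GT in all 45, against 88.4% of annotated pairs. In 27 of the 45 both forms were in protein-coding transcripts, in 9 the longer form was in nonsense-mediated decay transcripts alone, and in 4 in retained-intron transcripts alone. The shortest was Ggnbp2, a gametogenetin-binding protein gene, with 6 nt and a ΔPSI of -6.

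**Figure D4:**
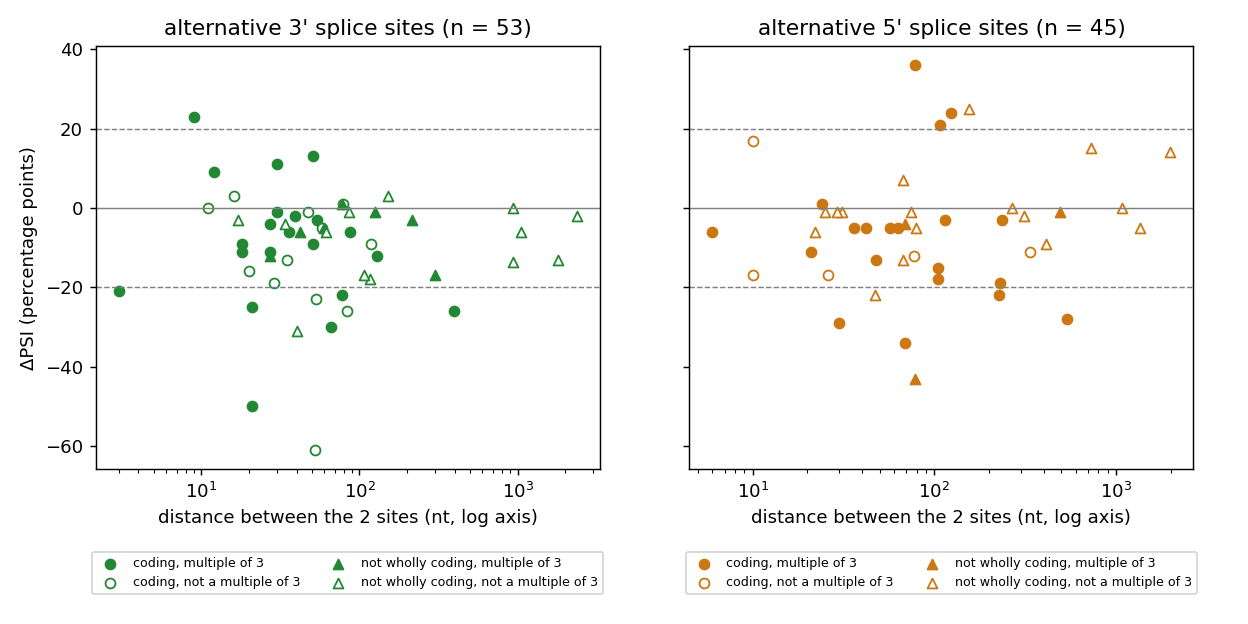
ΔPSI in percentage points against the distance between the 2 sites in nt (log axis), for 53 alternative 3′ and 45 alternative 5′ splice sites with 1 annotated pair. Filled symbols are multiples of 3, circles are wholly coding stretches and triangles are not. At 5′ sites the coding events past the dashed lines at 20 points are all filled, and at 3′ sites 7 of 10 are. The coding events under 10 points at 5′ sites are all filled as well.

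In 20 genes events of at least 2 of the 4 kinds were listed. The signs were the same, or 0, in 13. Regions of 2 kinds overlap in Btrc, Mark2, Atg13, Immt, Zfp62 and 1700019N12Rik, and among the other 7 genes in Tbp and BC051142. Overlapping regions share sequence, so their signs are not those of separate events. Btrc, an F-box protein gene, had -7 at a 3′ site, -6 and -7 at exclusive exons and -16 at a tandem event. Rims2 had -44 (exclusive) and -26 (tandem), Mark2 -9 and -33, Atg13 of autophagy -17 (5′ site) and -26 (tandem), Immt 23 (3′ site) and 68 (tandem), and Zfp62 60 (3′ site) and 23 (exclusive). Tdrd5 (-3 and -19), 2810408A11Rik (-18 and -1), 1700019N12Rik (-1 and -1), Odf4 (-4 and -6) and Senp2 (0 and 7) had a 3′ and a 5′ site, Rpgrip1 a 3′ site at -11 and a tandem event at -6, and Gtf2a2 a 5′ site at 0 and a tandem event at 5. In the other 7 genes the signs differed. Tbp had 25 at a 5′ site and -19 at an exclusive exon, Fbxo34 -4 (exclusive) and 26.5 (tandem), and Strada 1 (5′ site) and -21 (tandem). Cadm1, an adhesion gene of germ cells, had -7 (exclusive) and 6 (tandem). Adam32 had -5 and 4, and Pcbp3 -4 and 3, for a 5′ site and a tandem event. BC051142 had -8 (3′ site), -2.5 (exclusive), and 0 and 13 (tandem). A further 4 genes carried a pair of tandem events: Lrrfip2 (2 and -57), Cep63 (-8 and 17), Eef1d (10 and 26) and Ccdc30 (9 and 2.5).

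Grouped by function, members of a membrane traffic list had events in 9 of 65 genes, and 6 of the 9 were of at least 20 points. They were negative in Dctn1, Snx27, Kif1b (-22), Sec16a (-20) and Sec31a (-19), where Sec16a and Sec31a act at endoplasmic reticulum exit sites, and in Clta (-1). They were positive in Ap2a2 (14), Eps15 (21) and Synj1 (23), and the median was -19. An actin list had 9 events in 7 of 58 genes, with 4 positive, 5 negative and a median of -3, and 6 reached 20 points, among them Epb4.1l2 (-31.5) and Epb4.1 (-23.3), which encode membrane-skeleton proteins. It counts both Immt events, which the mitochondrial list holds too. Without them 7 events remain, 2 positive and 5 negative, with a median of -23.3, and 4 of at least 20 points. A mitochondrial list had 6 events in 5 of 25 genes, with 5 positive and a median of 17, led by Immt and Idh3b. Of 6 events in 5 of 41 genes for kinases, phosphatases and small GTPase regulators, 5 were negative, with a median of -27. For chromatin and transcription, 10 events in 9 of 51 genes were split 5 and 5 around a median of 8, with Bbx and Phf21a at 53 and -36. RNA-binding and splicing genes had 8 events in 8 of 53 genes, 2 positive and 6 negative, with a median of -2.5, and Pum2 alone passed 20 points. Adhesion genes had 3 events in 2 of 41 genes, with a median of -4 and none of that size. Of 32 genes known as PTB targets, 4 had an event of these kinds: Camk2g (-21), Clta (-1), Pkm (11) and Tpm1 (13). Over all 1223 events 21.0% reached 20 points, 39.2% of those not at 0 were positive and the median was -4. No list was tested, and nothing particular to a list is read from these counts.

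Expression was available for 30 of the 257 genes, since the deposited table holds only 988 genes that the authors listed as different. All 30 were lower in the cKO column, and in the authors' deposited table their median log2 fold change was -1.16, against -1.87 over the 988. In limma on log2(RPKM + 1) with Benjamini-Hochberg adjustment at 0.05, 25 of the 30 were lower and 0 higher, where 83.9% of the table was lower and 1.92% higher. At an unadjusted p under 0.05, 29 of the 30 passed, but this count was not taken over the whole table, so it has no background. The groups did not overlap in any of the 30, as in 100% of the table. In this fit the share past the adjusted threshold was 83.3%, near that of a table selected for difference. Nothing particular to these genes is read from it. By kind, 15 genes with a 3′ site, 11 with a tandem event, 6 with a 5′ site and 1 with an exclusive exon were in the table, and 11, 9, 6 and 1 of them passed.

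The 5 largest limma differences were those of 1700003F12Rik, Gsg1, Tmco5, Tsks and Ttll10. Gsg1 (5′ site, 24) was at 127 and 151 RPKM in the WT libraries and at 25.6 and 6.37 RPKM in the libraries labelled cKO. Tsks (the substrate of a testis-specific kinase) was at 46.7 and 54.2 against 9.78 and 3.16 RPKM. For 1700003F12Rik the values were 58.9 and 70.7 against 10.5 and 2.75 RPKM. Tmco5 was at 137 and 150 against 31.1 and 6.19 RPKM, and Ttll10 (tandem, 31) at 12.5 and 12.7 against 2.44 and 0.94 RPKM. In all 5 both libraries labelled cKO lay below both WT libraries, and library 2 below library 1. The limma difference of Gsg1 was -3.32 ± 0.67 on the log2 scale (SE, n = 2 per group), with a BH-adjusted p of 0.0177. That of Ttll10 was -2.39 ± 0.38, with the same adjusted p of 0.0177.

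Besides Gsg1 and Ttll10, other genes with splicing changes of at least 20 points had smaller falls. Cacnb1 (exclusive, -47) was at 7.71 and 7.85 RPKM in WT and at 3.99 and 2.72 RPKM in the libraries labelled cKO, with a limma difference of -1.03 ± 0.30 (BH-adjusted p = 0.0306). Sept4 (3′ site, -23) was at 10.7 and 11.6 against 4.41 and 3.66 RPKM (difference -1.27 ± 0.27, limma BH-adjusted p = 0.0177). Clip1 (5′ site, -22) was at 31.2 and 32.0 against 16.6 and 16.1 RPKM (difference -0.91 ± 0.26, limma BH-adjusted p = 0.0305). BC030307 (tandem, -23) was at 27.2 and 27.7 against 15.9 and 12.3 RPKM. The other genes that passed were 2810408A11Rik, Ankrd42, Adam32, Got1l1, Tulp2, Prom1, 1600016N20Rik, Ccdc30, Plcd4, Kif27, Cdkn3, Atp8b5, Slco6d1, Gm2762, Ttll5 and Ppp2r1b, with limma differences between -2.07 and -0.77. Adam32, of the ADAM membrane proteins, was the most abundant of the 30 at 312 and 319 against 102 and 75.4 RPKM. Lrrcc1, Ttc29 (3′ site, -31), Wdr96, Rpgrip1 and Pacs2 did not pass. Of Ttc29 the libraries had 115 and 120 RPKM in WT and 77.5 and 56.8 RPKM in those labelled cKO, with a limma BH-adjusted p of 0.0532. Without WT library 1, 6 of the 30 passed (1700003F12Rik, 2810408A11Rik, Gsg1, Tmco5, Tsks and Ttll10), and without WT library 2, 5 did. The same fits called 39.3% and 35.7% of the 988 genes lower. Without library 1 or without library 2 of those labelled cKO, all 30 passed, as did all 988 genes. Leaving out a library leaves an arm of 1, so in each of these fits the spread came from the other genotype alone and was assumed for the lone library.

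**Figure D5:**
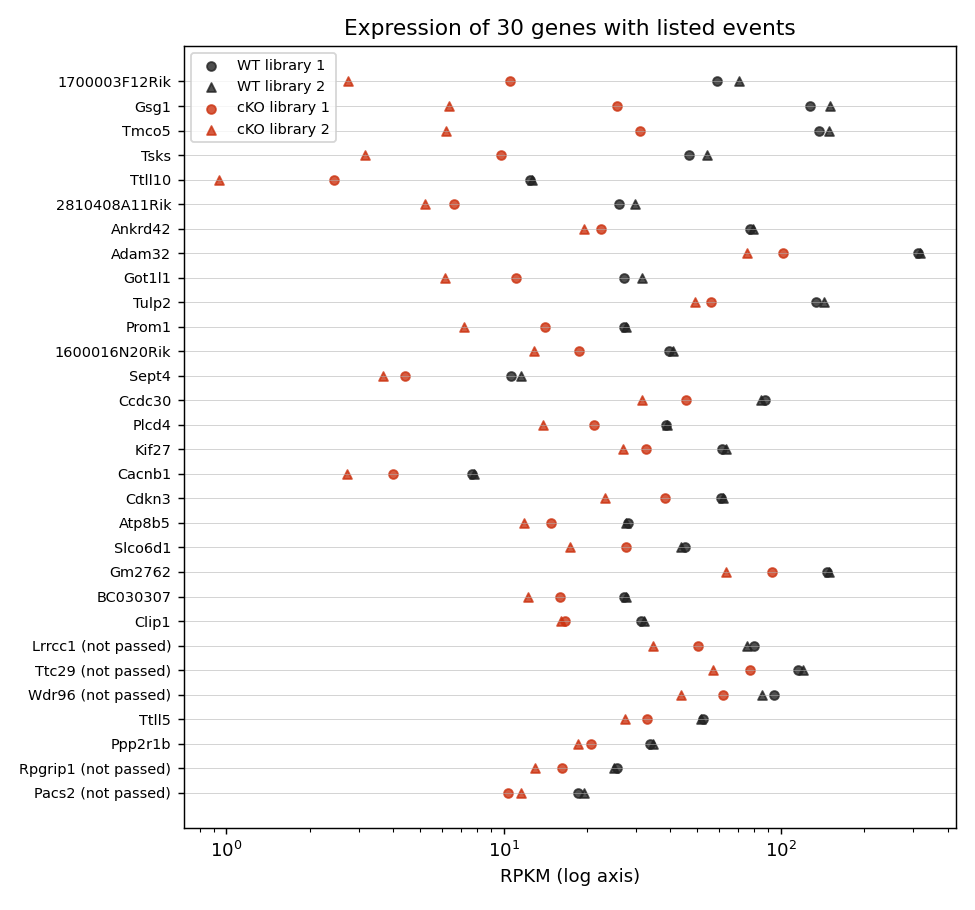
RPKM (log axis) of the 30 genes in each of the 4 libraries, 2 WT (black) and 2 labelled cKO (red), ordered by limma difference. Every gene is lower in both libraries labelled cKO than in both WT libraries, and 29 of the 30 are lower in library 2 than in library 1 of those labelled cKO.

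The libraries labelled cKO also differed from WT in their markers of germ cells. Of 22 spermatid markers, 19 were in the expression table, all lower, with log2 fold changes from -4.98 to -1.48 in the authors' deposited table. Their summed RPKM was 1865 and 2532 in WT and 259 and 62.5 in libraries 1 and 2 labelled cKO. Of the 22, Gsg1 is in the expression table and carries the 5′ event at 24. Crem (3′ site, -2) and Odf2 (5′ site, -5) carry events as well but are not among the 988 genes. Of 13 macrophage markers 3 were in the table, all higher. Of the 11 spermatocyte markers 2 were in it, both lower. It also held 1 of 10 Sertoli markers and 1 of 7 Leydig markers, with log2 fold changes of 0.75 and 0.78, and 1 of 6 myoid markers, with -2.35, all from the authors' deposited table. Markers of epididymis, erythroid cells, endothelium and spermatogonia were not in it. In bulk testis, fewer cells of a type and less RNA per cell cannot be told apart, and ΔPSI compares mixtures of cells that differ in this way. The part of these markers in the splicing and expression values was not tested. Ptbp2 itself was at 65.7 and 66.6 RPKM in WT and at 111 and 98.2 RPKM in the libraries labelled cKO, a limma difference of 0.65 ± 0.27 (BH-adjusted p = 0.0684). For Ptbp2 the authors' deposited table has a log2 fold change of 0.66 and an adjusted p of 0.0044. The sources used here do not say which part of Ptbp2 was deleted or which part was counted, so its RPKM is no check of the label. The cause of the higher Ptbp2 value was not tested.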

How the data were processed

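The authors deposited 1 ΔPSI per splicing event in percentage points, and RPKM per library, mean RPKM, log2 fold changes and adjusted p-values for 988 genes, per the file headers. The sources used here do not give the aligner, the splicing caller, the counting or the test behind these p-values. The submitters' processing notes name mm9 and mm10 without a role. Event coordinates were taken as mm9 with a start counted from 0, since end minus start gave the length of an annotated exon for 706 of 736 cassettes, against 79 with 1 added, and 18 had mm10 coordinates. RPKM is relative to all reads of a library, the depth is unknown, and no counting interval is given.

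Events were matched to GENCODE M21 (GRCm38) by gene, chromosome, strand and length, and 253 of 257 genes were found there. For a 3′ or 5′ site, the stretch is the difference to the single annotated shorter exon that shares the other end. Whether it codes was read from the annotation. For expression, limma 3.58.1 (R 4.3.3) was fitted to log2(RPKM + 1), without a block, over all 988 genes with Benjamini-Hochberg adjustment. A fold change on this scale understates that of low genes. The authors selected these genes on the same libraries, so the test is not independent evidence. With 2 mice against 2, the smallest exact two-sided permutation p is 0.333. Tables and figures used Python 3.11.15, pandas 2.3.3, numpy 2.4.6, scipy 1.17.1 and matplotlib 3.10.9.

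Named genes were the 5 largest changes of each sign and kind, genes with several kinds, events next to 20 points, list members past it and genes that passed limma. Other named genes, such as further events of at least 20 points and examples of exon structure or overlap, were chosen after their values were seen. Members, lists and comparisons were chosen with earlier results of these data known. The shares of stretches in frame and the annotated backgrounds were chosen after seeing the data.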

Additional observations from a re-analysis of the deposited data

How the results depend on the processing

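Of the values recomputed under other choices, 62 stayed within a set margin of the main value, 5 moved, 4 were weaker and 1 reversed. The margin was a fixed factor for counts and an interval for shares and medians, so these 62 are not all unchanged. Some of the 62 could not change. No gene had a second event at 3′ sites or at 5′ sites, so keeping 1 event per gene altered nothing there. All 30 genes with expression values were listed as lower, so the count called higher stayed at 0. Among tandem events of at least 20 points the share with a positive ΔPSI was 38.7%, where all tandem events had 60.0%. For alternative 5′ splice sites it was 41.7% at that size and 24.5% over all. When rows with a blank gene name were left out, events of at least 20 points dropped from 31 to 6 for tandem and from 7 to 2 for mutually exclusive exons, since many of these rows have a blank name. Counting a region as end minus start plus 1, the share of 5′ site regions divisible by 3 was 20% and not 47.3%. Among positive coding tandem events of at least 10 points, an alternative chosen after seeing the data, 68.4% were in frame, against 48.6% over all. The number of these genes lower in limma was 25 in the design as written, 16 among genes above the median expression, 13 with a replicate block and from 5 to 30 when 1 library was left out. Of all 988 genes, 829 (83.9%) were lower in the design as written, against 83.3% of these 30. Above the median expression, 309 of 494 (62.6%) were, against 59.3% of these genes. With the block, 622 of 988 (63.0%) were, against 43.3%. With 0.1 in place of 1 added to RPKM, the shares were 77.4% of all genes and 66.7% of these. These genes thus lay near the whole set in the design as written and above the median expression. With the block and with 0.1 their share was lower. Fits without 1 library are not compared, since an arm of 1 has no spread of its own. The cause of these moves in limma was not tested beyond the smaller number of genes or libraries. The labels give both genotypes the same replicate numbers without saying that they pair mice. The deviations of same-numbered libraries from their group means had a correlation of -0.331 over 988 genes. The replicate block is thus only a pairing by number. RPKM of unknown depth and 1 ΔPSI per event limit what can be said of small changes.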
